A study of Mus musculus with 8 samples.

Results

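The starting RNA of mouse mammary cells was compared between wild-type (WT) and Cpeb2 knockout (KO) preparations, as the difference of the authors' log2 group values, WT Input minus KO Input. Each row of the deposited table is the 3' untranslated region (3' UTR) of a transcript, placed on the mm10 mouse build. The comparison covered rows whose normalized count averaged 43 or more over the libraries, which were 5317 of 20586 rows, and the Input groups, which held 4 of the 8 libraries. A symbol was given for 5207 of these rows, no symbol was given to more than 1 of them, and 603 overlapped another row. Of the latter, 32 repeat the interval and the Input values of another row. Their 3' UTRs were 30 to 23858 bases wide, with a median of 1819.

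The study was an RNA immunoprecipitation sequencing experiment, in which RNA recovered with an antibody against CPEB2 (IP) is sequenced beside RNA of the same lysates (Input). WT Input and KO Input held 2 libraries each, from RIP experiments 2 and 3 and cell preparations 3 and 4 of each genotype, and IP libraries of the same design made up the other two groups. Both genotypes are labelled with the strain C57BL/6J 129, and no treatment is labelled. In both, mammary tissue was digested with enzymes, red cells were lysed and epithelial cells were enriched with an EasySep kit without culture, and poly(A) RNA was purified from Input but not from IP. Neither the age and sex of the mice, nor the deleted part of Cpeb2, nor any pooling of animals appears in the sources used here.

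CPEB proteins bind U-rich elements in the 3' UTRs of mRNAs and regulate their poly(A) tails and translation. The mammary duct has an inner luminal layer, made up of cells that carry oestrogen and progesterone receptors and of progenitor and milk-secreting cells that mostly lack them, and an outer basal layer of contractile myoepithelial cells. In the adult gland progesterone acts on the receptor-bearing cells, which signal to their neighbours through RANK ligand.

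The table gives 1 value per group on the scale of log2(normalized count + 1), and the separate libraries behind the Input values were not used, since their columns could not be tied to samples. No replicate error, and so no p-value, can be given for an Input difference; a count past a fold states size alone, and genes are described as higher or lower with no test. Depth is unknown for the same reason. Because the tissue was measured in bulk, fewer cells of a type and less RNA per cell cannot be told apart. The 4 Y-linked genes listed were at 0 in both Input groups.

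Input differences were small for most 3' UTRs. The median was -0.09 on the log2 scale with a standard deviation across rows of 0.25, the 5th and 95th percentiles were -0.48 and 0.32, and 35.6% of rows were above 0. No row was higher in WT Input by at least 1 on the log2 scale (0%), and 10 rows were lower by that much (0.188%). The imbalance depends on the centring: there were 3 higher and 5 lower rows with the median of all rows subtracted. At a 1.5-fold difference, 32 rows were higher (0.602%) and 123 were lower (2.31%). The same rows spread more widely in the IP groups, where 360 were higher by at least 1 (6.77%) and 45 were lower (0.846%). IP differences had a median of 0.13 and a standard deviation of 0.55.

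The authors' deposited table holds a standard error for 1 other quantity, the interaction, which is the IP difference less the Input difference. In a fit whose terms are the 4 groups, that error is no smaller than the error of the Input difference alone; the formula is not given in those sources. Its median was 0.49, and the size of the Input difference divided by it was 0.357 at the median and 2.66 at most. The Input difference exceeded 1 such error in 280 rows (5.27%) and 1.96 such errors in 4 rows (0.0752%). Those 4 were Syn2, Padi2, Gm16485 and Gfod1.

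**Figure D1:**
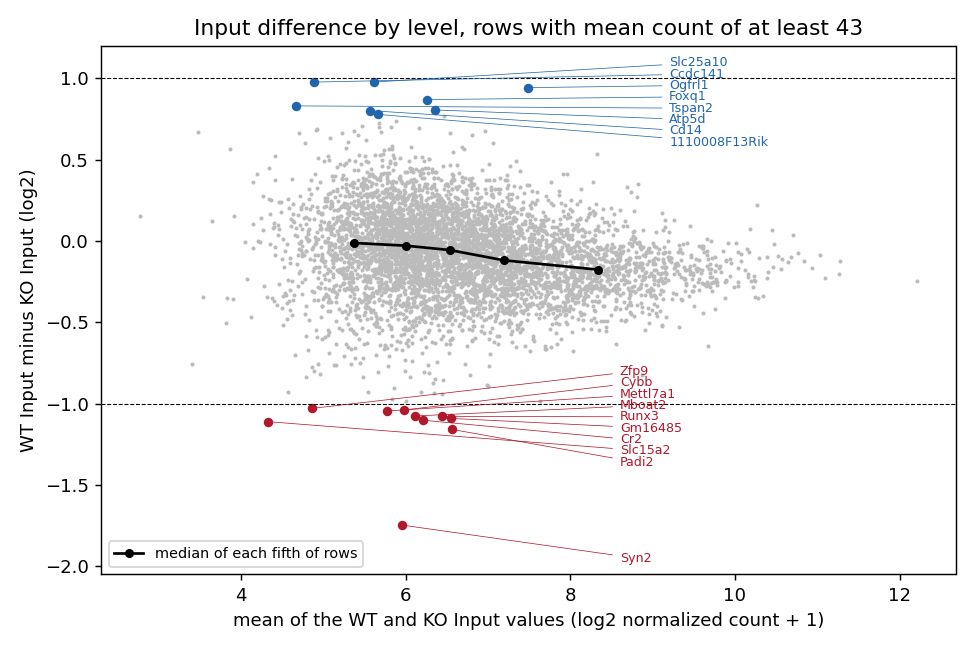
Each point is 1 of the 5317 rows, with the mean of the WT and KO Input values on the horizontal axis (log2 of normalized count + 1) and WT Input minus KO Input on the vertical axis (log2). Red points are the 10 rows lower in WT by at least 1, blue points are the 8 highest rows, none of which reaches 1, and the black line joins the medians of 5 equal-sized bins of level, which go from -0.01 to -0.18.

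The most negative difference belonged to Syn2, which encodes synapsin II, a phosphoprotein of synaptic vesicles. Its 3' UTR row (chr6:115274325-115276559) had a value of 5.08 in WT Input against 6.83 in KO, a difference of -1.75, or 3.36-fold. In the IP groups the WT minus KO difference of Syn2 was -0.64. The other 9 called rows lay between -1.16 and -1.03. Their range is bounded by the threshold of 1, so it does not measure how far Syn2 stands apart.

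Padi2, a peptidylarginine deiminase that converts arginine to citrulline in proteins, had 5.98 in WT Input against 7.13 in KO (chr4:140949925-140952586), a difference of -1.16. Its IP difference was -1.41. Both fractions were therefore lower in WT by more than 1 on the log2 scale. Slc15a2, the peptide transporter PEPT2, had 3.77 in WT Input against 4.88 in KO (chr16:36750178-36751777), a difference of -1.11. Mboat2, an acyltransferase of lysophospholipids, had 5.57 and 6.65 (chr12:24959161-24960301), a difference of -1.08 with 0.14 in IP.

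The next 3 called rows described are Cr2, Runx3 and Cybb. Cr2, complement receptor 2 of B cells and follicular dendritic cells, had 5.66 in WT Input against 6.76 in KO (chr1:195136811-195139798), a difference of -1.10. In IP it was higher in WT, by 0.83. Runx3, a transcription factor of T and natural killer cells among other tissues, had 5.90 and 6.98 (chr4:135175833-135177990), a difference of -1.08 with -0.78 in IP. Cybb, the catalytic subunit of the phagocyte NADPH oxidase, had 5.46 and 6.50 (chrX:9435252-9438216), a difference of -1.04 with -0.48 in IP.

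The remaining called rows were Mettl7a1, Zfp9 and Gm16485. Mettl7a1, a methyltransferase-like protein, had 5.25 and 6.29 (chr15:100313231-100314348), a difference of -1.05. Zfp9, a zinc finger protein, had 4.35 and 5.38 (chr6:118461950-118464334), a difference of -1.03. Gm16485 is a gene model and lies outside the naming rule. It had 6.00 in WT Input against 7.09 in KO (chr9:8972483-8975773), a difference of -1.09 with -0.93 in IP. In IP, 6 of the 10 called rows were also lower in WT, while 40.4% of all rows were. Just outside the threshold lay Greb1 at -0.99 and Atg5 at -0.98.

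On the other side no row reached 1, and the rows named here were chosen after their values were seen. Slc25a10, the mitochondrial dicarboxylate carrier, had 6.10 in WT Input against 5.13 in KO, a difference of 0.98, against -0.50 in IP. Ccdc141, a coiled-coil protein, had 5.37 and 4.40, a difference of 0.98 with 0.85 in IP. Ogfrl1, named for its likeness to the opioid growth factor receptor, had 7.96 and 7.02, a difference of 0.94 with 1.35 in IP. Foxq1, a forkhead transcription factor, was 0.87 higher in WT Input (6.69 against 5.82). In the IP groups Foxq1 stood at 5.70 in WT and 2.71 in KO. Of the 32 rows higher by 1.5-fold in Input, 24 (75%) were also above 0 in IP, where 59.6% of all rows were. Of the 123 rows lower by 1.5-fold, 61 (49.6%) were also below 0 in IP, where 40.4% of all rows were.

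**Figure D2:**
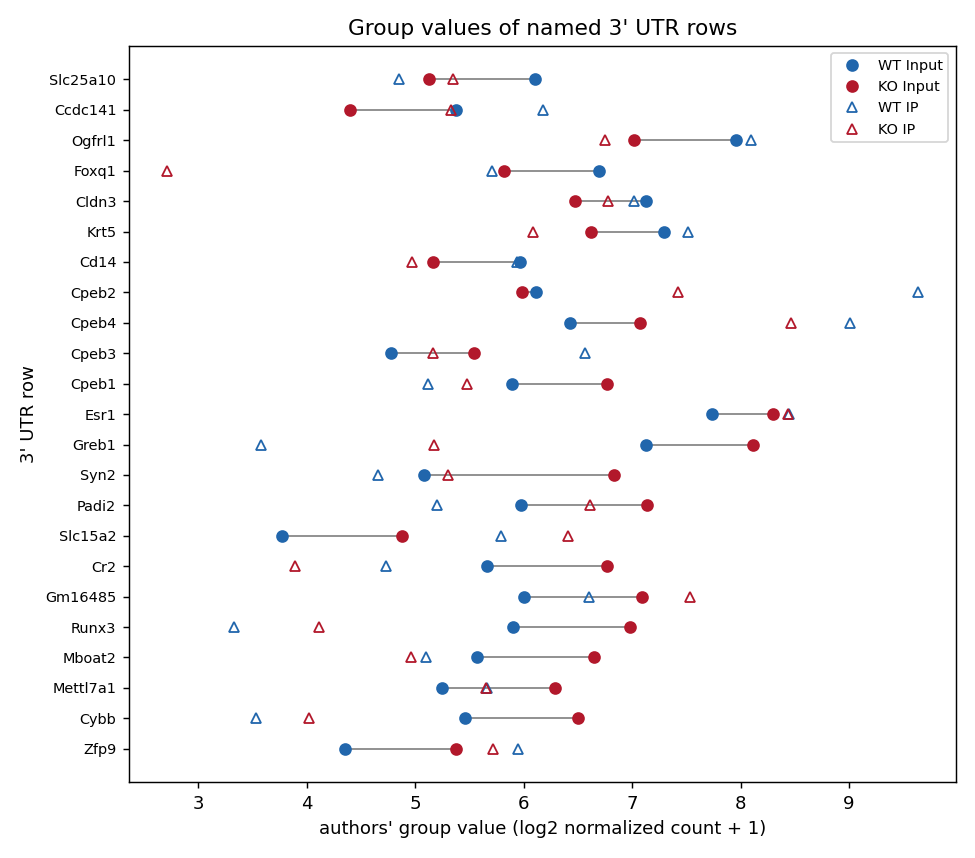
Authors' group values (log2 of normalized count + 1, horizontal axis) of named 3' UTR rows in WT and KO, 1 value per group with no error. Syn2 shows the widest gap between WT Input and KO Input, from 5.08 to 6.83.

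The labelled cell type was set against marker genes. Levels were compared between genes per kilobase of 3' UTR, on the linear scale of normalized counts. Epithelial markers were among the high ones in both genotypes: Krt8, a luminal keratin, stood at 823 in WT Input and 814 in KO Input. The luminal adhesion protein Epcam was at 503 and 447 per kilobase, and the basal keratin Krt14 at 556 and 482. Stromal RNA was also present, with the collagen-binding proteoglycan Dcn at 1020 in WT and 1216 in KO. Median levels in KO Input were 207 for the shared luminal list, 215 for the basal list, 184 for fibroblasts and 100 for endothelium. Lymphocyte markers had a median of 6.37 and adipocyte markers of 17.7.

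Genes of luminal progenitors and alveolar cells lay above the median row. Of 20 listed genes 14 were kept, 11 of them above 0, with a median of 0.34 against -0.09 over all rows; 1 passed 1.5-fold upward and 0 downward. That gene was Cd14, the co-receptor for lipopolysaccharide, at 5.96 in WT and 5.16 in KO, a difference of 0.80. The receptor tyrosine kinase Kit had 7.61 in WT Input against 7.18 in KO, a difference of 0.43. Elf5, the transcription factor of alveolar fate, had 6.75 and 6.37, a difference of 0.37. The kept members below 0, named to show the other sign, were Lipa at -0.20, Ltf at -0.15 and Cxcl15 at -0.05. In IP, 7 of the 14 were above 0, with a median of 0.07 against 0.13 over all rows. Per kilobase, the summed level of this list was 3518 in WT and 2816 in KO, a log2 ratio of 0.32.

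Hormone-receptor-positive luminal genes went the other way in sign. None of the 12 kept members was above 0, with a median of -0.18, and 1 passed 1.5-fold downward. It was Greb1, an oestrogen-induced partner of the oestrogen receptor, with 7.13 in WT Input and 8.12 in KO Input. Esr1, the oestrogen receptor itself, had 7.74 and 8.29, a difference of -0.56. Pgr, the progesterone receptor, lay below the minimum at a mean normalized count of 23.3, with 2.91 and 3.64. Cited4, a transcriptional co-activator, and Fgb, a fibrinogen chain, also lay below the minimum and went the other way, at 1.06 and 0.95. At a minimum of 10 the list had 2 of 17 members above 0 and a median of -0.17, with 2 members higher and 2 lower by 1.5-fold. The summed level per kilobase was 2747 in WT and 3033 in KO, a log2 ratio of -0.14. Over all rows, the summed normalized count of WT Input, not divided by width, was 0.925 times that of KO Input. The kept members had a median Input level of 7.82. In the highest of 5 equal-sized bins of level, from 7.65 up, all rows had a median difference of -0.18.

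Of the genes shared by luminal cells, 9 of 15 kept were above 0, with a median of 0.02, or 0.11 at a minimum of 10. The tight junction protein Cldn3 had 7.13 in WT Input and 6.47 in KO Input. Basal and myoepithelial genes had a median of 0.14 over 23 kept members, 14 of them above 0; at a minimum mean count of 100 the median was -0.04. Krt5, a keratin of the basal layer, had 7.30 and 6.62, a difference of 0.68, whereas Snai2, a transcription factor of the same layer, was at -0.40. Summed per kilobase, basal markers stood at 7184 in WT and 6965 in KO, a log2 ratio of 0.04.

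The fibroblast list had 5 of 27 members above 0 and a median of -0.19. Its summed level was 7370 in WT against 8237 in KO per kilobase, a log2 ratio of -0.16. Summed over all rows, WT Input was 0.925 times KO Input, as given above. The median Input level of the fibroblast list was 7.70, within the highest of 5 bins of level, where all rows had a median difference of -0.18. Endothelial genes had a median of -0.04 (0.05 with the median of all rows subtracted) with 9 of 21 above 0, ranging from the lymphatic receptor Lyve1 at -0.42 to Adgrl4 at 0.51. All 4 pericyte genes kept were below 0, with a median of -0.44: Rgs5, a regulator of G protein signalling, had 7.88 in WT Input and 8.43 in KO Input. At a minimum of 10 the pericyte median was -0.34, with 1 of 7 above 0. Adipocyte genes had a median of -0.13 (1 of 7 above 0), but of -0.03 at a minimum of 10 (6 of 14), where all rows had -0.05. Schwann cell genes had a median of -0.16 (2 of 7).

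Few leukocyte genes passed the minimum, so their lists are given at a lower minimum, a mean normalized count of 10, where 9917 rows had a median of -0.05. At that minimum 37 rows were higher by at least 1 (0.373%) and 54 were lower (0.545%); at 1.5-fold 290 were higher (2.92%) and 396 lower (3.99%). Among 10 myeloid genes, 2 were above 0, the median was -0.51, and 4 were lower by 1.5-fold while 1, Cd14, was higher. Cd14 is also in the luminal progenitor list. All 6 lymphocyte genes were below 0, with a median of -0.62, and 4 were lower by 1.5-fold. The summed levels per kilobase, which take in members below the minimum, differed less. Myeloid markers stood at 973 in WT and 1151 in KO, a log2 ratio of -0.24. Lymphocyte markers stood at 342 and 390, a log2 ratio of -0.19. The phosphatase Ptprc (CD45), which marks leukocytes in general, had 2.65 in WT Input and 3.77 in KO Input.

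The B cell membrane protein Ms4a1 (CD20) had 4.19 in WT Input against 5.35 in KO, a difference of -1.15. Laptm5, a lysosomal protein of blood cells, had 5.71 and 6.45. The fractalkine receptor Cx3cr1 was at 5.21 and 5.91. The integrin subunit Itgal, chosen after its value was seen, differed by -1.94. In IP these lists were also below 0, with medians of -0.60 for myeloid and -0.72 for lymphocyte genes. Whether leukocyte content bears on the called rows was not tested; Cr2, Runx3 and Cybb are in neither list. Globin and other erythrocyte genes had a median of -0.43, with 1 of 5 above 0, after a lysis step meant to remove red cells. Skeletal muscle genes had no member at the higher minimum; their summed level per kilobase was 619 in WT and 467 in KO.

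**Figure D3:**
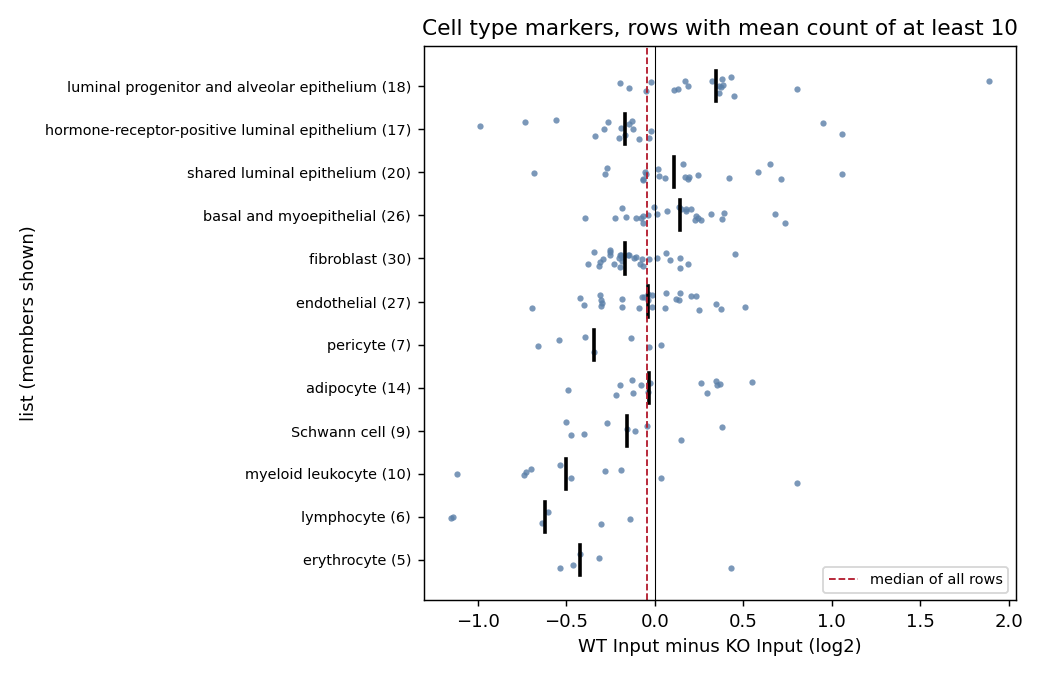
WT Input minus KO Input (log2, horizontal axis) of the members of each cell type list, 1 point a gene, with the number shown in brackets. The luminal progenitor list has a median of 0.34. At the lower minimum of 10, lists with medians below 0 include hormone-receptor-positive (-0.17), pericyte (-0.34), myeloid (-0.51) and lymphocyte (-0.62). Members above 0 number 2 of 17, 1 of 7, 2 of 10 and 0 of 6 in the same order.

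Among the CPEB family the Input row of Cpeb2, whose gene is the one knocked out, differed little, with 6.11 in WT and 5.98 in KO. A 3' UTR row lies outside coding exons and is no check of the deletion unless the 3' UTR was removed, which is not given. The paralogues were lower in WT Input: Cpeb1 had 5.89 against 6.76, a difference of -0.87. Cpeb3 had 4.77 and 5.54, and Cpeb4 had 6.43 and 7.07. Thus 3 of 4 members were lower by more than 1.5-fold, with a family median of -0.70, whereas the IP median was 0.97. Of all rows, 2.31% were lower by that much. With the trend over 3' UTR width subtracted, the family median was -0.55. Divided by the authors' interaction error, the sizes were 1.45 for Cpeb1, 1.08 for Cpeb3 and 1.47 for Cpeb4. Rows within 10 Mb of Cpeb2, 29 in number, had a median of -0.11 and ranged from -0.39 to 0.52. Chromosome medians lay between -0.13 and -0.04 over 20 chromosomes. Chromosome Y, left out of that range, held 1 kept row, at -0.16.

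Genes of the polyadenylation and deadenylation machinery, through which CPEB proteins act, lay mostly below 0, at 4 of 27 above it and a median of -0.19. With the trend over 3' UTR width described below subtracted the median was -0.08, and at a minimum of 10 it was -0.09 with 14 of 39 above 0. Cnot4, a ubiquitin ligase that binds the CCR4-NOT deadenylase, had 7.51 in WT Input and 7.95 in KO Input. The deadenylase subunit Pan3 had 7.20 and 7.64. Its 3 members lower by more than 1.5-fold were Cpeb1, Cpeb3 and Cpeb4, which both lists hold. In IP the median of the list was 0.37. No other list at the minimum of 43 had more than 1 member past 1.5-fold in either direction, so the list medians given here describe small shifts.

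RANK and progesterone signalling had 6 of 18 members above 0 and a median of -0.19, which became 0.01 once the width trend was subtracted. The list shares Esr1 with the hormone-receptor-positive list and Elf5 with the luminal progenitor list. Tnfsf11, the RANK ligand, had 1.55 in WT Input and 2.54 in KO Input at a mean normalized count of 5.74, far below the minimum. Its receptor Tnfrsf11a had 6.79 and 6.97. Ccnd1, a D-type cyclin of the G1 phase, was nearly level at 9.19 and 9.11. D cyclins and their partners as a list had a median of 0.06, with 6 of 10 above 0; it was -0.11 over rows that overlap no other row. Proliferation genes had no member kept, and 11 at the lower minimum had a median of -0.10.

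The chaperone lists lay on opposite sides of 0. Heat shock and cytosolic or mitochondrial chaperone genes had 16 of 19 members above 0 and a median of 0.22. Genes of the unfolded protein response, which expands folding capacity in the endoplasmic reticulum (ER), had 2 of 20 above 0 and a median of -0.20. Heat shock factor binds inverted repeats of GAA, and ATF6 with the factor NF-Y binds the ER stress response element, so promoters were searched on both strands for GAA-NN-TTC-NN-GAA, where N is any base, and for CCAAT followed after 9 bases of any kind by CCACG, from RefSeq sequence on GRCm38.p6.

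The first motif was found in 5 of the 18 listed heat shock genes that had a promoter in the table, and in 179 of 27025 genes overall (0.662%). For the 5, 1 window each is printed to show the repeat in the list that was higher in WT Input, with the motif in capitals. The Hspd1 and Hspe1 windows overlap in a promoter that both genes share, on opposite strands, and several windows hold overlapping matches.
Chordc1 (chr9:18292255-18292284, plus strand): tgcaaccgGAACGTTCGGGAAaattcctga
Dnajb6 (chr5:29735844-29735873, plus strand): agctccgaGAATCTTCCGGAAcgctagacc
Hspd1 (chr1:55088050-55088079, minus strand): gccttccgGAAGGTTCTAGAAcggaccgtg
Hspe1 (chr1:55088056-55088085, plus strand): ccgttctaGAACCTTCCGGAAggccccgcg
Hsph1 (chr5:149636279-149636308, minus strand): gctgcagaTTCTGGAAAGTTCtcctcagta

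In these genes the Input differences were small and above 0. Hsph1, a co-chaperone of HSP70, had 7.86 in WT and 7.61 in KO, a difference of 0.25. Hspd1, the mitochondrial chaperonin, had 7.25 and 7.06. Its partner Hspe1 had 5.91 and 5.82, and Chordc1, a partner of HSP90, had 5.88 and 5.64. Dnajb6, an HSP40 co-chaperone, had 5.86 and 5.64. Of the whole list, 3 of 19 members were not above 0, the lowest being Dnajb4 at -0.18. The highest of the list was Dnaja4, of the same HSP40 family, at 6.97 and 6.61, a difference of 0.36. Hspa1a, the inducible HSP70, had 8.85 and 8.51, while its near-identical copy Hspa1b had 8.80 and 8.74, and reads may be split between them. In IP the list lay below 0, with a median of -0.23.

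The second motif was found in 8 of 22 listed genes of the unfolded protein response with a promoter and in 37 of 27025 genes overall (0.137%). Windows are printed for the 6 that hold it in the direction of transcription, to show the element in the list that was lower in WT Input, with the motif in capitals.
Hspa5 (chr2:34772020-34772049, plus strand): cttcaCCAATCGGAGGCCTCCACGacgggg
Hsp90b1 (chr10:86705632-86705661, minus strand): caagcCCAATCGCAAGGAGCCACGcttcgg
Dnajc3 (chr14:118937822-118937851, plus strand): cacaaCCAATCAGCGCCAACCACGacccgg
Canx (chr11:50325794-50325823, minus strand): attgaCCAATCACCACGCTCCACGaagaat
Syvn1 (chr19:6046527-6046556, plus strand): cgcaaCCAATCGGCGGTAGCCACGggaaca
Pdia6 (chr12:17266486-17266515, plus strand): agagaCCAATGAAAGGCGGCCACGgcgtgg

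Hspa5, the ER chaperone BiP, had 8.13 in WT Input against 8.32 in KO, a difference of -0.20. Hsp90b1, the ER form of HSP90, had 7.28 and 7.51. The differences of the other 4 genes were -0.04 for the lectin chaperone Canx, -0.20 for the ubiquitin ligase Syvn1, -0.06 for the co-chaperone Dnajc3 and -0.08 for the disulfide isomerase Pdia6. Canx, Dnajc3 and Pdia6 were thus no lower than the median of all rows. The member farthest below 0 was Edem1, which hands misfolded glycoproteins to degradation, at 6.71 and 7.31, a difference of -0.61. Ern1, the ER stress sensor IRE1, had 6.84 and 7.25, whereas Xbp1, the factor it activates, was at 0.07. A match to a motif is a description of these letters, not a site or a cause.

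**Figure D4:**
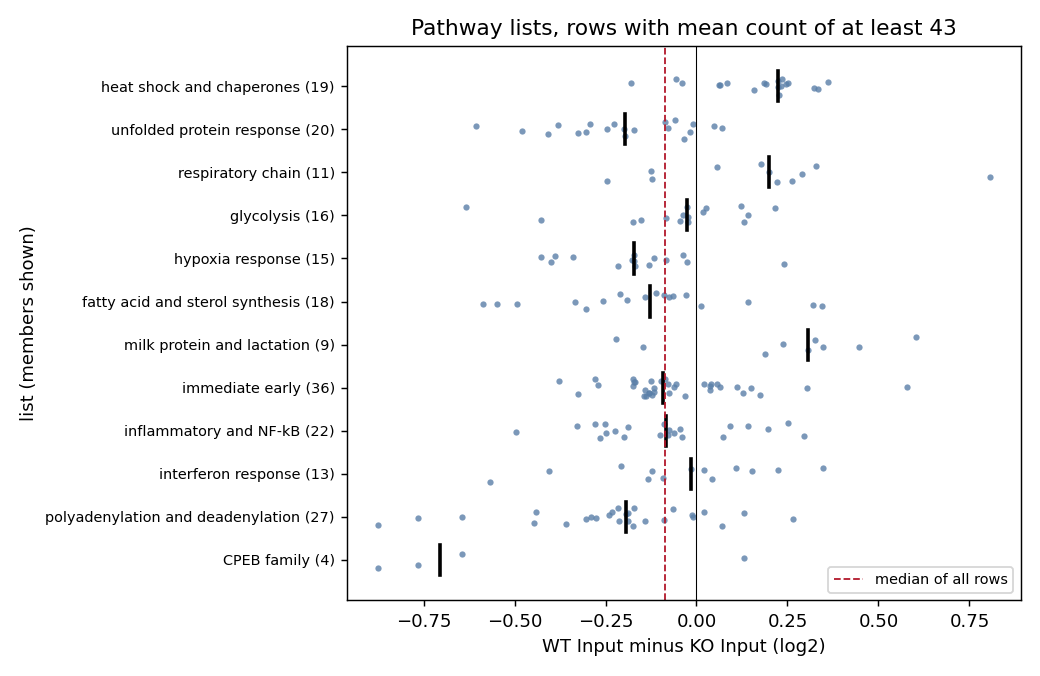
WT Input minus KO Input (log2, horizontal axis) of the members of each pathway list among the 5317 rows, 1 point a gene. Heat shock genes have a median of 0.22 and unfolded protein response genes of -0.20.

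Metabolic lists differed in sign too. Respiratory chain genes had 8 of 11 above 0 and a median of 0.20, which was 0.03 over 2 members at a minimum of 100. The list was led by Atp5d, a subunit of ATP synthase, with 6.75 in WT Input and 5.95 in KO Input. Hypoxia response genes had 1 of 15 above 0 and a median of -0.17. Their median Input level was 7.73, within the highest of 5 bins of level, where all rows had a median difference of -0.18. Vegfa, the endothelial growth factor, had 8.86 and 9.25. Fatty acid and sterol synthesis had 4 of 18 above 0 and a median of -0.13, which was -0.07 with the width trend subtracted, with Sc5d, a sterol desaturase, at 5.78 and 6.37 and Insig1, which restrains sterol regulatory proteins, at 4.95 and 5.50. Glycolysis genes had a median of -0.03, although Hk2, a hexokinase, was at 7.51 in WT and 8.15 in KO.

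Milk protein and lactation genes had 7 of 9 above 0 and a median of 0.31, or 0.19 over 3 members at a minimum of 100. Mfge8, for one, is also in the luminal progenitor list, so the medians of these lists are not separate results. Glycam1, a milk mucin, had 6.40 in WT Input and 6.05 in KO Input. Immediate early genes, which respond to dissociation within minutes, had a median equal to that of all rows, -0.09, with 12 of 36 above 0, and -0.02 with the width trend subtracted. Fos was at -0.14 and Egr1 at -0.27. The NF-kB list had a median of -0.08 (6 of 22 above 0), the interferon list of -0.01 (6 of 13) and the p53 target list of -0.17 (3 of 10). The p53 median was -0.04 with the width trend subtracted. Wnt, Notch and Hedgehog genes had a median of -0.08 with 10 of 22 above 0, and the ligand Wnt5a had 7.11 and 7.63. Junction genes stood at 0.06 (12 of 18) and ribosomal protein genes at -0.04 (7 of 17). With the median of all rows subtracted, the NF-kB, interferon, ribosomal protein, glycolysis and Wnt, Notch and Hedgehog medians turned to between 0.00 and 0.07, and every list median moved up by 0.09.

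Rows with wider 3' UTRs had lower Input differences. Over the 5317 rows the Spearman coefficient between Input difference and width was -0.31, and in IP it was 0.30, of opposite sign. In 5 equal-sized bins with median widths of 608, 1207, 1819, 2672 and 4274 bases, the median Input differences were 0.03, -0.04, -0.08, -0.15 and -0.18. The IP medians in the same bins were -0.20, 0.06, 0.14, 0.22 and 0.30. Rows lower by 1.5-fold numbered 5 in the narrowest bin and 42 in the widest. Rows share libraries and differ in level and base composition, so the coefficients are a description across rows.

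Width and level were themselves weakly related, with a Spearman coefficient of 0.13. Within 3 equal-sized classes of low, middle and high Input level, the coefficient with width was -0.31, -0.30 and -0.25. The Input difference also went down with level, at -0.23, and its standard deviation went from 0.29 in the lowest of 5 bins of level to 0.17 in the highest. The luminal progenitor median was 0.33 with the width trend subtracted.

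**Figure D5:**
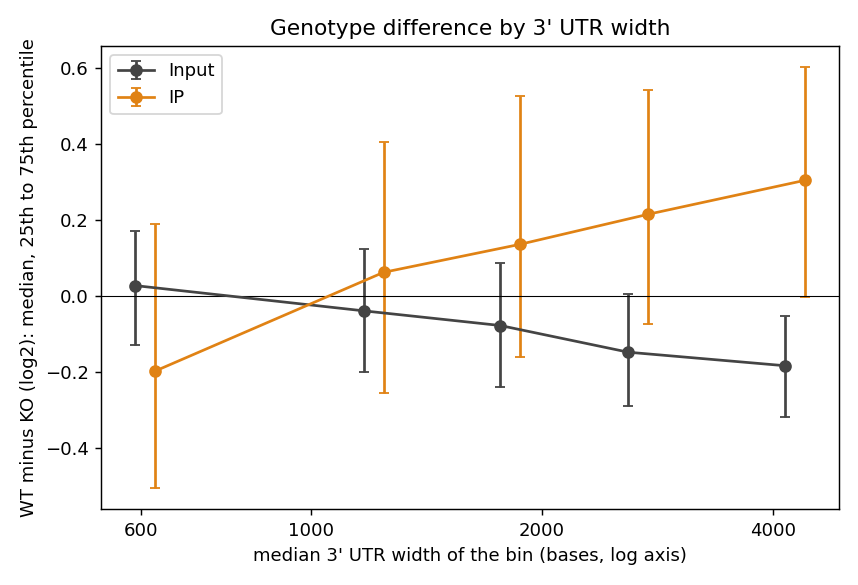
Median WT minus KO difference (log2, vertical axis) in 5 equal-sized bins of 3' UTR width (median width in bases, log axis), with bars from the 25th to the 75th percentile; the Input and IP points of a bin are offset sideways for legibility. Input medians go from 0.03 to -0.18 and IP medians from -0.20 to 0.30.

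The Input and IP differences of a row were almost unrelated, with a Spearman coefficient across rows of -0.05. Some lists had opposite signs in both fractions, as with heat shock genes at 0.22 in Input and -0.23 in IP. Polyadenylation genes were at -0.19 and 0.37, and Schwann cell genes at -0.16 and 0.66. The medians of all rows were themselves of opposite sign, at -0.09 in Input and 0.13 in IP. The polyadenylation list had a median width of 2459 bases, and all rows of 2178 to 3291 bases had medians of -0.15 and 0.22. Other lists kept their sign, among them fibroblast genes at -0.19 and -0.49 and hormone-receptor-positive genes at -0.18 and -0.37.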

How the data were processed

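Mouse mammary Input and IP RNA of WT and KO preparations had been sequenced, 2 libraries a group. The authors deposited 1 table of 3' UTR rows with 1 log2 value per group, which behaves as log2 of a normalized count plus 1. It also holds, per the file headers, a mean normalized count over all libraries (a signal computed with DESeq2), the width of each interval, and for the interaction a log2 fold change, its standard error, a Wald score and its p-value and adjusted p-value. Bowtie 0.12.9, Bowtie2 2.2.2, DESeq2 and the build mm10 are listed, per the submitters' processing notes, with no role stated for any of them. The authors counted reads by a rule, a strand setting and a treatment of multiple mapping not given in the sources used here; overlapping or near-identical genes are therefore uncertain.

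The 8 columns of single libraries carry names that no label ties to a sample and were not used, so the edgeR fit on Input libraries that the design allowed for was not run, and depth and replicate spread are unknown. Computed here were the Input difference, counts at a difference of 1 on the log2 scale and at 1.5-fold, list counts and medians for 33 lists, levels per 1000 bases of 3' UTR for rows of at least 100 bases, and Spearman coefficients, with Python 3.11.15, pandas 2.3.3 and scipy 1.17.1. A subtracted width trend was a running median over 301 rows. The scripts were tested on simulated data. Named genes were those past 1 on the log2 scale, up to 15 a direction without gene models, a fixed set of CPEB, hormone and cyclin genes, and up to 6 members a list by size of difference (for cell types also by level); exceptions are stated. The members and lists were chosen with earlier results of these data known. Promoter sequences, from 250 bases before to 50 after each gene's start, are from RefSeq on GRCm38.p6. Alternatives changed the minimum count, the added constant, the centring, the width trend, the fold and overlapping rows.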

Additional observations from a re-analysis of the deposited data

Results flagged for a closer look

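For 4 of the genes named above, WT minus KO differed between IP and Input by the interaction in the authors' deposited table, which is the Wald test of that difference itself. Cpeb3 and Gfod1 were kept for an Input difference of at least 1.5-fold, and Cpeb2 and Ccnd1 were added by name. The 4 are not the full set: among other list members, the adjusted p from the Wald test was 0.00861 for Flt1 and 0.0167 for Aqp7. In the authors' deposited table the interaction of Cpeb2 was 2.12 on the log2 scale, with a standard error of 0.45 and an adjusted p from the Wald test of 0.00119. Ccnd1 had an interaction of 1.92 in the authors' deposited table, with a standard error of 0.43 and an adjusted p from the Wald test of 0.00224. For Cpeb3 the authors' deposited table gives 2.39, with a standard error of 0.71 and an adjusted p from the Wald test of 0.0377. Gfod1 had 1.41 in the authors' deposited table, with a standard error of 0.41 and an adjusted p from the Wald test of 0.0347. The Input differences of these genes were 0.13 for Cpeb2, 0.08 for Ccnd1, -0.77 for Cpeb3 and -0.88 for Gfod1. Their IP differences were 2.21, 1.94, 1.40 and 0.52 in the same order. Because the interaction subtracts the Input difference, the negative values of Cpeb3 and Gfod1 add to their interactions. Gfod1 was itself named above for the size of its Input difference. The adjusted p of Cpeb3 and of Gfod1 is therefore not separate from the Input difference, and IP differences alone were not tested here.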

How the results depend on the processing

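No paired analysis was possible because the table gives 1 value per group and the single-library columns carry no replicate numbers; for the same reason leaving out a replicate, a replicate block, DESeq2 and edgeR on the Input libraries were not run. The 0 rows higher by at least 1 became 3 with the median of all rows subtracted (Ogfrl1, Ccdc141 and Slc25a10), 3 with the width trend subtracted, 37 at a mean normalized count of at least 10 and 32 at 1.5-fold. The 10 rows lower by at least 1 became 5 with the median subtracted, 4 with the width trend subtracted, 54 at a mean normalized count of at least 10, 1 at 100, 6 with 5 added to the back-transformed values, 123 at 1.5-fold and 1 at a size of 1.5 on the log2 scale. Syn2 kept its call in each of these except the minimum of 100, where it was not tested. At a minimum of 100 the CPEB family median was -0.26 over 2 rows and the ribosomal protein median 0.22 over 3 rows. Of 223 medians over 28 lists and their alternatives, 14 turned sign, in 9 lists whose own medians were at most 0.19 in size. With the median subtracted, endothelial genes were at 0.05, NF-kB genes at 0.00, interferon genes at 0.07, ribosomal protein genes at 0.05, glycolysis genes at 0.06 and Wnt, Notch and Hedgehog genes at 0.00. With the width trend subtracted, endothelial genes were at 0.05, interferon genes at 0.04, RANK and progesterone genes at 0.01 and Wnt, Notch and Hedgehog genes at 0.01. At a minimum of 100, basal genes were at -0.04 and D cyclin genes at -0.06, and D cyclin genes were at -0.11 over rows that overlap no other.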

Other observations

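The row of Gm16485, one of the 10 called lower in WT Input, begins 7057 bases downstream of the end of the Pgr row on the same strand, and the Pgr row is itself lower in WT Input, at -0.74 with a mean normalized count of 23.3. At a mean normalized count of at least 10, further rows had differences past 1; those named here were chosen after their values were seen. Alox15, an arachidonate lipoxygenase, had 3.03 in WT Input and 5.18 in KO Input, and its IP difference was -2.03. Icos, a co-stimulatory receptor of T cells, had 5.30 and 6.35, with -2.28 in IP. In the other direction Rspo1, a secreted Wnt agonist of the luminal progenitor list, had 5.15 in WT Input and 3.26 in KO Input, with 1.52 in IP.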
